A study of Mus musculus with 6 samples.

Results

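Collagens are the main structural proteins of the extracellular matrix, and each is built from 3 chains that wind into a triple helix. A deposited comparison of HT22 cells exposed to AA147 or to vehicle was searched for the genes that encode these chains, by the symbol pattern of Col, a number, the letter a and a number. It held 30 such genes among 16472. They were sorted by the class of collagen they form, and their values were described gene by gene. The choice was made with earlier results of the same comparison known, so the calls below are the authors' and describe the genes without testing them as a list.

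HT22 is a line of immortalised hippocampal cells from mouse that serves as a neuronal model. Cultures were given AA147, a compound described as activating ATF6, a sensor of misfolded protein in the endoplasmic reticulum, at a concentration that the labels give as 10 mM, or DMSO as the vehicle, for 16 h. Each of the 2 groups had 3 libraries of non-stranded mRNA, 6 in all, and the labels do not say whether they came from separate cultures. If they did not, the p-values measure only the technical spread between these libraries.

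Fibrillar collagens (types I, II, III, V and XI) form the banded fibrils that carry tension in tissue. Type IV collagen forms the sheet of the basement membrane, to which types XV and XVIII attach, and type VI forms beaded filaments around cells. Types VIII and X build short-chain networks, and fibril-associated collagens such as types XII and XVI sit on the surface of fibrils. The helix needs the right chains in the right proportion, so chains of the same trimer are compared with each other below.

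The table holds 1 line for each gene, and values of single libraries were not analysed here. For each gene it gives the mean normalized count over the libraries, a log2 fold change with its standard error (SE), and an adjusted p, and "called" means an adjusted p under 0.05 from the authors' DESeq2 fit. The depth of each library is unknown, and the means summed to 30768012 over all genes. The numerator of the fold change is not named. Signs are read here as AA147 over vehicle, and under the opposite reading every "rose" or "fell" and every level or share given for a group would be exchanged.

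The cell line's label was checked against marker genes of neurons and of other cells. Of 20 neuron markers, 4 had a line in the authors' deposited table, and 16, among them Rbfox3, Map2 and Snap25, had none in the table used here. Tubb3, a neuronal tubulin, had a mean of 1199 and rose by 0.43 (adjusted p 5.67e-05) in the authors' deposited table. Syn1 there had a mean of 562 and a value of 0.13 (adjusted p 0.558). The remaining neuron markers had low means and negative values. Camk2a, with a mean of 10.6, stood at -0.44 (SE 0.719), and Slc17a7, with a mean of 3.93, stood at -1.98 (SE 1.26). Neither of them was called, and Slc17a7 had no adjusted p. Of 15 fibroblast or mesenchymal markers, 12 had a line in the authors' deposited table, led by Vim with a mean of 152806. The 3 others, Lum, Tcf21 and Fap, had none in the table used here. Among the 12, 4 fell and 1 rose in the authors' deposited table, 7 were not called and the median was -0.14. Over all genes with an adjusted p, 20.2% were called, 11.1% negative and 9.05% positive. Of those with a mean of at least 1000, as for 9 of the 12 markers, 28.4% were called. Pdgfra at -0.81, Pdgfrb at -0.97, Dcn at -0.81 and S100a4 at -0.78 fell and Prrx1 at 0.23 rose, while Vim at -0.08 and Fn1 at -0.11 were not called in the authors' deposited table. The summed level of the 12, split between the groups from the authors' deposited table as explained below, was 286537 with vehicle and 246051 with AA147, and S100a4 alone accounted for 23748 of that difference. Of 23 markers of astrocytes, oligodendrocytes, microglia and endothelial cells, 12 had a line in the authors' deposited table. An adjusted p was listed for 6 of them, of which 4 were called, beside the 20.2% of all such genes. A mean under 100 was found for 9 of the 12. Slc1a3 at -1.30, Tmem119 at -0.49 and Cspg4 at -0.29 fell, and Csf1r, with a mean of 48.0, rose by 0.95 in the authors' deposited table. The part of these markers in the collagen values was not tested.

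Among the 30 collagen genes, 12 fell with AA147 and 0 rose. An adjusted p was listed for 25 of them in the authors' deposited table, and 13 of these were not called. At an unadjusted p under 0.05, 14 of all 30 were negative and 1 positive. Over all 16472 genes, 2212 were negative and 2088 positive at that limit. Over all 13597 genes with an adjusted p in the authors' deposited table, 20.2% were called, 11.1% negative and 9.05% positive. The median log2 fold change of the 25 collagen genes was -0.52, beside 0.01 for all genes with an adjusted p. In such bulk libraries, less RNA per cell cannot be told apart from fewer cells that make it.

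All 12 called genes were among the 15 collagen genes whose mean reached 1000 in the authors' deposited table, termed abundant below. Of all genes that abundant, 28.4% were called, 15.6% negative and 12.8% positive. The exceptions among these 15 were Col4a1, Col4a2 and Col6a3. For 10 of the 15 genes with a lower mean an adjusted p was listed, and the authors' DESeq2 fit called 0 of them, beside 13.9% of all genes with a mean under 1000. Among all 15, 2 had an unadjusted p under 0.05. The called gene with the largest adjusted p was Col18a1 at 1.58e-08 in the authors' deposited table, and the next genes, not called, were Col4a1 at 0.0532 and Col5a3 at 0.0786.

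**Figure D1:**
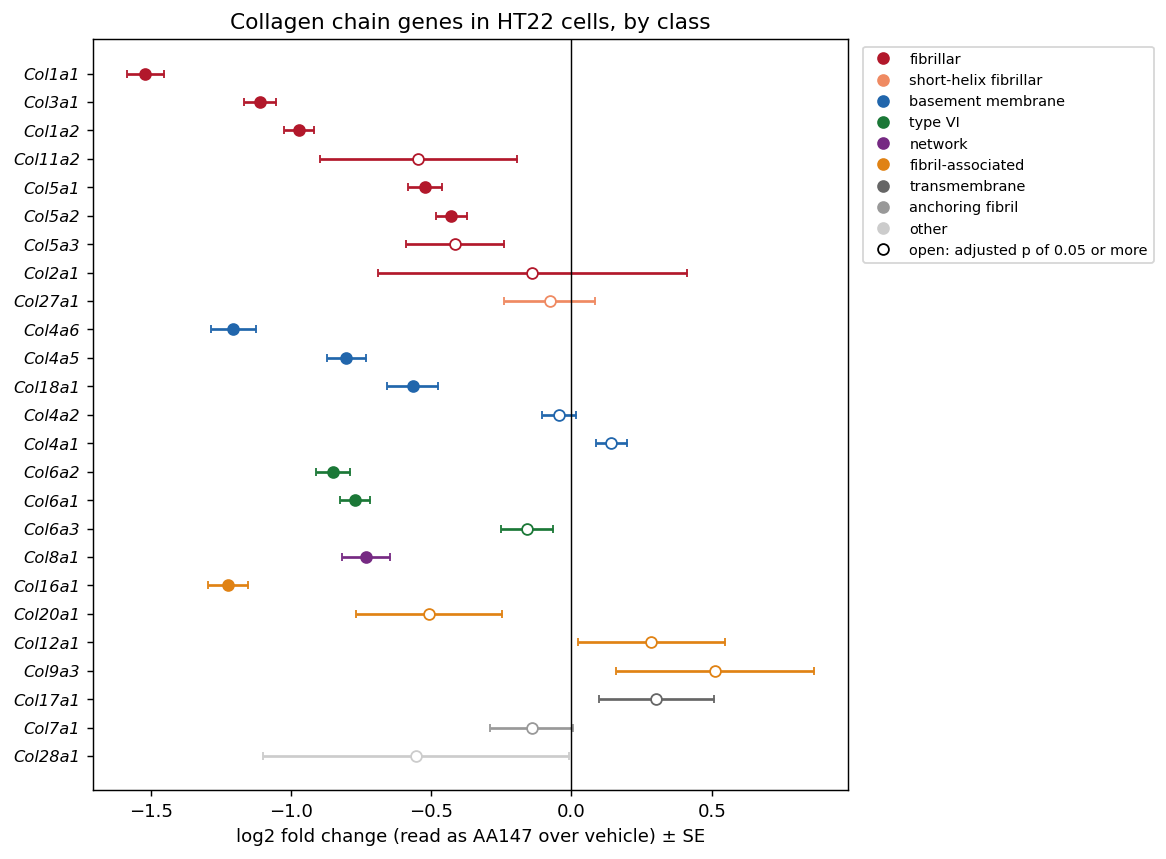
The log2 fold change of each of the 25 collagen chain genes with an adjusted p in the authors' deposited table (x axis, read as AA147 over vehicle), with bars of 1 SE, grouped by class and coloured by it; filled points have an adjusted p under 0.05. The 12 filled points run from -1.52 for Col1a1 to -0.43 for Col5a2, and Col4a1, Col4a2 and Col6a3 stand near 0 with short bars.

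The fibrillar genes included the most abundant collagen transcripts and the largest called fall. Of 8 genes in the authors' deposited table, 5 were called, all negative, and the median log2 fold change of the 8 was -0.53. The 5 called were the 5 abundant ones, and the others had means of at most 172. The mean weighted by 1/SE squared was -0.87. Col1a2 ranked 4 and Col1a1 ranked 10 by mean among all genes in the authors' deposited table. Together they held 70.7% of the summed means of the 30 collagen genes.

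Type I collagen, the main collagen of bone, skin and tendon, combines Col1a1 chains with a smaller number of Col1a2 chains. Col1a1 had a mean of 139176 and fell by 1.52 on the log2 scale (SE 0.066, adjusted p 6.32e-115, authors' deposited table). Col1a2 had a mean of 254004 and fell by 0.97 (SE 0.053, adjusted p 2.39e-73, authors' deposited table). The Wald statistic of Col1a1 ranked 1 from the negative end among all genes in the authors' deposited table, that of Col3a1 ranked 5 and that of Col1a2 ranked 9.

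To express these values as levels, the mean of each gene was split into a vehicle and an AA147 part, taking groups of equal size and the fold change at face value. These implied levels carry no error of their own. Col1a1 had an implied level of 206337 normalized counts with vehicle and 72014 with AA147, a change of -65.1%. For Col1a2 the implied levels were 336475 and 171534, a change of -49.0%. Per kb of transcript, the implied level of Col1a1 was 0.554 times that of Col1a2 with vehicle and 0.379 times with AA147. The log2 fold changes of Col1a1 and Col1a2 differed by -0.55. The combined SE of this difference was 0.084 and its 95% interval ran from -0.71 to -0.38. This SE, used for all chain pairs here, treats the genes as independent, and their covariance within libraries is unknown.

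Col3a1, which forms homotrimers and is found with type I in stretchable tissues, had a mean of 39895 and fell by 1.11 (SE 0.057, authors' deposited table). Its difference from Col1a2 was -0.14 with a combined SE of 0.077, less than 2 combined SEs. The promoters of Col1a2 and Col3a1, shown because these are the most abundant fibrillar chains with an entry in the RefSeq table, had none of 3 searched motifs in common. The 200 bases before the annotated start are given 5′ to 3′ on the strand of the gene, from RefSeq and GRCm38.p6, with each match to CCAAT, to TATAAA or to GGGCGG on either strand in capitals. The Col1a2 stretch is chr6:4505418-4505617 (plus strand) and that of Col3a1 is chr1:45311338-45311537 (plus strand).
Col1a2: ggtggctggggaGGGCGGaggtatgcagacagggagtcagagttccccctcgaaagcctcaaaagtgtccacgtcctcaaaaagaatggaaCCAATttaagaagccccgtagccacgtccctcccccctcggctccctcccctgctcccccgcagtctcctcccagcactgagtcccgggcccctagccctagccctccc
Col3a1: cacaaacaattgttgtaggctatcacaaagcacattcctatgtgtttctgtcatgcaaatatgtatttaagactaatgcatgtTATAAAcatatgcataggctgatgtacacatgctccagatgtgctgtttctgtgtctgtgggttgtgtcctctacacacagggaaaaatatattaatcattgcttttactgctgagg

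The Col1a2 stretch held a CCAAT at position -109 from its annotated start and a GGGCGG at -188. In Col3a1 the match was a TATAAA at -117. A match is a description of the letters and not evidence of a bound factor.

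Type V chains, which are buried in type I fibrils and limit their width, had smaller values than type I. Col5a1 had a mean of 18616 and fell by 0.52 (SE 0.061, adjusted p 4.23e-16, authors' deposited table). Col5a2 had a mean of 15753 and fell by 0.43 (SE 0.055, adjusted p 3.09e-13, authors' deposited table). These partners of the same trimer differed by -0.10 with a combined SE of 0.082, and the 95% interval from -0.26 to 0.06 includes 0. Per kb of transcript, the implied level of Col5a1 was 1.09 times that of Col5a2 with vehicle and 1.02 times with AA147. Col5a1 lay above Col1a2 by 0.45 in log2 fold change, with a combined SE of 0.080. Col3a1 and Col5a2 are neighbours in the genome, and their log2 fold changes differed by -0.68 with a combined SE of 0.079.

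The third type V chain, Col5a3, was weakly expressed. Its mean was 172, and its fold change of -0.42 had an SE of 0.176 in the authors' deposited table. Col11a2, a cartilage chain that can join type V chains, had a mean of 38.2 normalized counts with a fold change of -0.55 (SE 0.352, adjusted p 0.300, authors' deposited table). Col2a1, the main cartilage collagen, had a mean of 17.0 and a 95% interval from -1.22 to 0.94 around its fold change. That interval includes both 0 and a fall as large as that of Col1a2. Col27a1, a fibrillar chain with a shorter helix, had a mean of 234 normalized counts with a fold change of -0.08 (SE 0.163) in the authors' deposited table, with a 95% interval from -0.40 to 0.24. Col11a1 and Col24a1 had no line in the table used here.

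**Figure D2:**
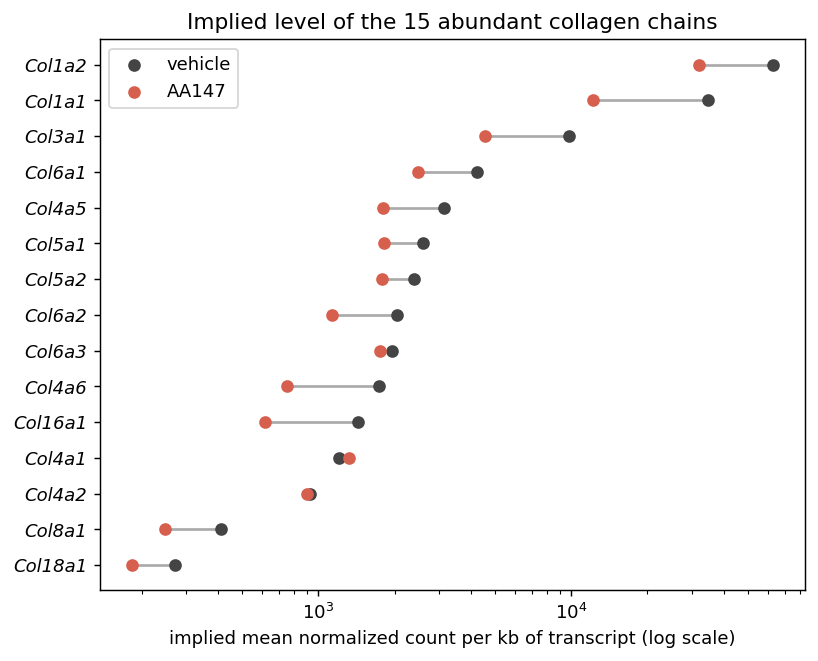
Implied mean normalized count per kb of transcript (x axis, log scale) with vehicle (dark) and AA147 (red) for the 15 abundant collagen genes, ordered by the vehicle level; grey lines join the values of a gene. Col1a2 falls from 62787 to 32009 and Col1a1 from 34795 to 12144, while the points of Col4a1, Col4a2 and Col6a3 lie close together.

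The basement membrane genes divided by chain. Of 6 genes in the authors' deposited table, Col4a5, Col4a6 and Col18a1 fell, Col4a1 and Col4a2 were not called, and Col4a3 had no adjusted p. The most widespread type IV trimer is made of Col4a1 and Col4a2 chains, while Col4a5 and Col4a6 form the trimer of some basement membranes such as that of smooth muscle. The genes of each pair lie head to head, with the chains transcribed away from each other.

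Col4a1 had a mean of 8358 normalized counts with a fold change of 0.14 (SE 0.056, adjusted p 0.0532, authors' deposited table). Col4a2 had a mean of 6154 normalized counts with a fold change of -0.05 (SE 0.061, adjusted p 0.679, authors' deposited table). The 95% interval ran from 0.03 to 0.25 for Col4a1 and from -0.16 to 0.07 for Col4a2, so a fall of the size seen in Col4a5 lay outside both. Col4a1 lay above Col4a2 by 0.19, with a combined SE of 0.083 and a 95% interval from 0.03 to 0.35. By its adjusted p, Col4a1 lay near the limit of a call. Its adjusted p was 0.0451 when genes with a mean under 100 were left out, 0.0287 after centring on reference genes and 0.00798 after a trend on length, GC content and mean was subtracted, and 0.0875 after centring on abundant genes.

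Col4a5, the chain mutated in X-linked Alport syndrome, had a mean of 16193 and fell by 0.80 (SE 0.070, adjusted p 4.38e-28, authors' deposited table). Col4a6 had a mean of 8238 and fell by 1.21 (SE 0.080, adjusted p 9.66e-49, authors' deposited table). Col4a5 lay above its partner by 0.40, with a combined SE of 0.106 and a 95% interval from 0.19 to 0.61. Between the pairs the distances were larger. Col4a1 exceeded Col4a5 by 0.94 (combined SE 0.090) and Col4a6 by 1.35 (combined SE 0.098). For Col4a2 these differences were 0.76 (combined SE 0.093) and 1.16 (combined SE 0.101).

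Per kb of transcript, Col4a1 and Col4a2 made up 30.4% of the implied type IV level with vehicle and 46.6% with AA147. Within the pairs, the implied level per kb of Col4a1 was 1.30 times that of Col4a2 with vehicle and 1.48 times with AA147. That of Col4a5 was 1.81 times that of Col4a6 with vehicle and 2.40 times with AA147.

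The annotated starts of Col4a1 and Col4a2 overlap by 22 bases in the RefSeq promoter table, while 1342 bases separate those of Col4a5 and Col4a6. These regions are shown because the pairs share an arrangement and not a response. The 30 bases at chr8:11312801-11312830 (GRCm38.p6, plus strand) have the shared bases in capitals, and in the Col4a5 stretch, chrX:141475219-141475418 (plus strand), and the Col4a6 stretch, chrX:141474077-141474276 (minus strand), capitals mark the 3 motifs as above.
Col4a1 and Col4a2 starts: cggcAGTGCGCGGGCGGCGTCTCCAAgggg
Col4a5: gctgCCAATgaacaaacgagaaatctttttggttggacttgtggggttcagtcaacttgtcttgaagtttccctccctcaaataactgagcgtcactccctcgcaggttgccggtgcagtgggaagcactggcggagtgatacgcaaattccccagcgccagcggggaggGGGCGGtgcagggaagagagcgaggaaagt
Col4a6: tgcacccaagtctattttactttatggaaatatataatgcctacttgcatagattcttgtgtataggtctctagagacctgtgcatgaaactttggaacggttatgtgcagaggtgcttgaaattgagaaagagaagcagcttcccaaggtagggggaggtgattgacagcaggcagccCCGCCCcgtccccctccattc

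In the window from 250 bases before to 50 after the start, Col4a2 held a CCAAT at -32 and Col4a1 one at -145 on the reverse strand. Col4a5 held a CCAAT at -196, and no CCAAT was found in the Col4a6 window. GGGCGG was found in the windows of all 4 genes. Because the libraries carry no strand, reads from the bases that Col4a1 and Col4a2 share cannot be assigned to 1 of them, and the spans of these genes in the RefSeq gene table overlap by 85 bases.

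Col18a1, whose C-terminal fragment is endostatin, had a mean of 1270 and fell by 0.57 (SE 0.091, adjusted p 1.58e-08, authors' deposited table). Col4a3 had a mean of 5.59 in the authors' deposited table. Col4a4 and Col15a1 had no line in the table used here.

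Type VI collagen is assembled from Col6a1, Col6a2 and Col6a3 chains in equal numbers, and its 3 main genes did not have like fold changes. Col6a1 had a mean of 13723 and fell by 0.77 (SE 0.053, adjusted p 5.19e-45, authors' deposited table). Col6a2 had a mean of 9473 and fell by 0.85 (SE 0.061, adjusted p 2.96e-42, authors' deposited table). Col6a3, the longest chain, had a mean of 16812 normalized counts with a fold change of -0.16 that was not called (SE 0.092, adjusted p 0.233, authors' deposited table).

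Col6a1 and Col6a2, which are neighbours in the genome, differed by 0.08 with a combined SE of 0.081. Col6a1 lay below Col6a3 by -0.61 (combined SE 0.107) and Col6a2 lay below it by -0.69 (combined SE 0.110), with 95% intervals from -0.82 to -0.40 and from -0.91 to -0.47. The 95% interval of Col6a3 itself ran from -0.34 to 0.02. Its SE was 1.56 times the median of the genes nearest in mean, and Col6a3 was the 1 collagen gene of the 30 at or above 1.5 times. Col4a6 at 1.30 and Col4a5 at 1.19 followed among the abundant collagen genes. The Col6a3 transcript has 9107 bases, beside 4100 for Col6a1 and 5970 for Col6a2. Col5a1, the next longest among the abundant collagen genes with 8446 bases, had an SE of 1.03 times the median of its neighbours. The part of transcript length in the SE of Col6a3 was not tested.

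**Figure D3:**
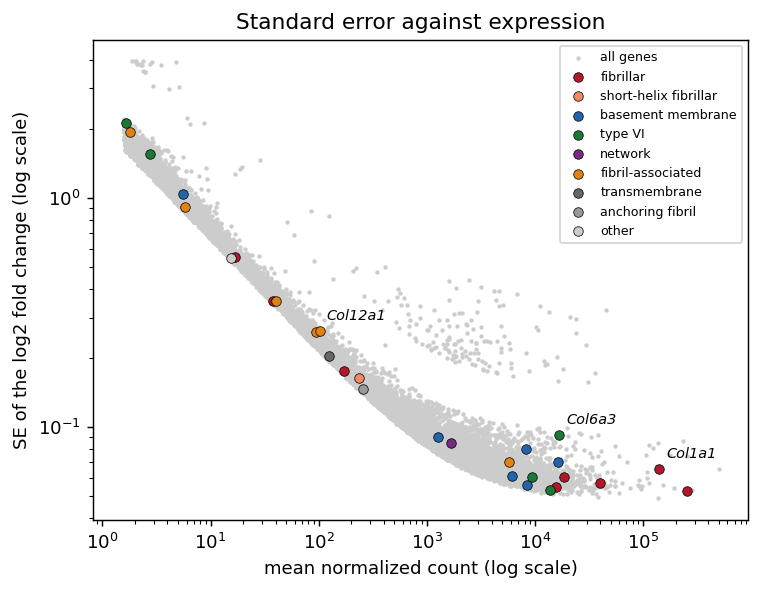
SE of the log2 fold change (y axis, log scale) against the mean normalized count (x axis, log scale) for all genes in the authors' deposited table (grey) and the 30 collagen genes (coloured by class). Collagen genes follow the band of other genes, except Col6a3, whose SE of 0.092 lies above it.

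Per kb of transcript, the implied level of Col6a1 was 2.17 times that of Col6a3 with vehicle and 1.42 times with AA147, and that of Col6a2 was 1.05 times and 0.649 times. These ratios between genes depend on the transcript length assumed. With coding length in its place, Col6a2 stood at 1.78 times Col6a3 with vehicle and 1.10 times with AA147. The change of a ratio between groups does not depend on length.

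Promoters of the type VI genes are shown because the chains of this trimer divided. The 200 bases before the outermost annotated start come from chr10:76726045-76726244 for Col6a1, chr10:76623631-76623830 for Col6a2 and chr1:90843972-90844171 for Col6a3 (all minus strand, GRCm38.p6), with capitals as above.
Col6a1: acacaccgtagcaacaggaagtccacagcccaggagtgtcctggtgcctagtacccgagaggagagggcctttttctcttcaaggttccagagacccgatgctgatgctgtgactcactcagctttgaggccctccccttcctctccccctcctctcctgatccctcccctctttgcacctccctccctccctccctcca
Col6a2: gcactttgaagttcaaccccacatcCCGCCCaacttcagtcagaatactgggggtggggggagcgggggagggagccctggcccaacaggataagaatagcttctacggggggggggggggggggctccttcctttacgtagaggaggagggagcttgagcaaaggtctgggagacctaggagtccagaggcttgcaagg
Col6a3: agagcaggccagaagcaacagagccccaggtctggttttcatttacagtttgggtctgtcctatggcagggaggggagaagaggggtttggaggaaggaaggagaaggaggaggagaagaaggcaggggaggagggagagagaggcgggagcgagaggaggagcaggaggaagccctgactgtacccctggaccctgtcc

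None of the 3 motifs was found in the windows of Col6a1 and Col6a3, whose fold changes differ, and the Col6a2 stretch held 1 GGGCGG on the reverse strand at -175. A second, inner start of Col6a2 has a window with 3 GGGCGG on the reverse strand, at -67, -15 and -11. The absence of these letters in a window says nothing of the factors that bind there. Col6a4 and Col6a5, with means of 2.74 and 1.64 in the authors' deposited table, had no adjusted p, and Col6a6 had no line there.

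**Figure D4:**
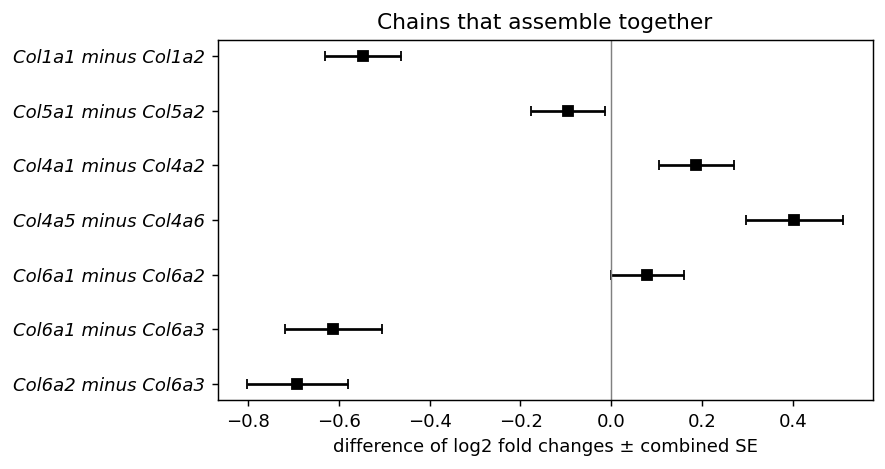
Difference of the log2 fold changes (x axis) between chains that assemble together, for the 7 pairs in which both genes are abundant; bars are 1 combined SE, which ignores covariance between genes. The pairs within type V and Col6a1 with Col6a2 lie within 1.2 combined SEs of 0. Col4a1 with Col4a2 lies at 2.27 and Col4a5 with Col4a6 at 3.79. Col1a1 with Col1a2 and both pairs with Col6a3 lie beyond 5.

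Among network collagens, Col8a1, a chain found in vessel walls and under the corneal endothelium, had a mean of 1687 and fell by 0.73 (SE 0.085, adjusted p 7.86e-16, authors' deposited table). Its implied levels were 2106 with vehicle and 1268 with AA147. Col8a2 and Col10a1 had no line in the table used here.

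Of 6 fibril-associated genes in the authors' deposited table, Col16a1 was called. It had a mean of 5808 and fell by 1.22 (SE 0.071, adjusted p 1.84e-64), next to Col1a1 the largest called fall among the collagen genes. Its implied levels were 8133 with vehicle and 3483 with AA147, a change of -57.2%. The promoter of this gene is given for its place beside Col1a1 in fold change, from chr4:130047640-130047839 (plus strand, GRCm38.p6), with capitals as above.
Col16a1: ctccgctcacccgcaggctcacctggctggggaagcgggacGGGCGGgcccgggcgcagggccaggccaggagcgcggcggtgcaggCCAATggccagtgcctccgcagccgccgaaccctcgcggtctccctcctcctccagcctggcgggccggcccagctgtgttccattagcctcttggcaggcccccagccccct

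The Col16a1 stretch held a CCAAT at -113 and a GGGCGG at -159. The other members of this class had means of at most 102 in the authors' deposited table, and their values carry wide errors. Col12a1, which coats type I fibrils in dense tissue, stood at a fold change of 0.29 (SE 0.262, adjusted p 0.508, authors' deposited table), with a 95% interval from -0.23 to 0.80. That of Col9a3 was 0.51 (SE 0.353) and that of Col20a1 was -0.51 (SE 0.260) in the authors' deposited table. The interval of Col12a1 thus left out a fall of the size of that of Col16a1. Col9a1 and Col22a1 had no adjusted p, and Col9a2, Col14a1 and Col19a1 had no line in the table used here.

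The remaining genes were not called. Col17a1, a transmembrane collagen of hemidesmosomes, had a mean of 124 normalized counts with a fold change of 0.30 (SE 0.205, adjusted p 0.330, authors' deposited table). Col7a1, which forms the anchoring fibrils of skin, had a mean of 258 normalized counts with a fold change of -0.14 (SE 0.147), with a 95% interval from -0.43 to 0.15. Col28a1 had a mean of 15.3 in the authors' deposited table. Col13a1, Col23a1, Col25a1 and Col26a1 had no line in the table used here.

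Summed over the 30 genes, implied collagen counts were 743773 with vehicle and 368773 with AA147, which were 2.37% and 1.22% of the implied total. The AA147 sum was 49.6% of the vehicle sum, and under the opposite reading of the sign it would be 202%. Col1a1 and Col1a2 accounted for 79.8% of that difference, and their share of collagen counts was 73.0% with vehicle and 66.0% with AA147. These sums are dominated by the most abundant genes.

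Across the promoters, 26 windows of 300 bases were found for 23 of the 30 genes, and Col1a1 was among those with no entry. A CCAAT on either strand was present in 11 of these 26 windows, 42.3%, beside 37.4% of all 32851 windows in the RefSeq promoter table. GGGCGG was present in 17, 65.4%, beside 35.7%, and TATAAA in 3, 11.5%, beside 13.6%. The 32851 windows were not limited to genes with a line in the authors' deposited table, as the collagen windows were. The shares are thus of unlike sets of genes. Whether the GGGCGG share differs from that of other genes in the authors' deposited table was not tested. Not all of these windows are separate. Those of Col4a1 and Col4a2 overlap and share a GGGCGG, and those of Col6a2 overlap each other. GGGCGG occurred in windows of genes that fell, such as Col5a1 and Col8a1, and of Col4a1 and Col4a2, which were not called.

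Across the 15 abundant collagen genes, the Spearman correlation of the log2 fold change was 0.475 with transcript length, -0.014 with GC content and -0.232 with the mean. These are descriptions over genes that share the same libraries.

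The genes that modify, cut, bind and degrade collagen were read from 5 lists. Their counts stand beside 20.2% of all genes called (11.1% negative and 9.05% positive) and 28.4% of abundant genes (15.6% and 12.8%). Enzymes and chaperones of collagen processing had 29 genes with an adjusted p in the authors' deposited table, of which 14 fell and 0 rose by the authors' DESeq2 fit. At an unadjusted p under 0.05 1 was positive, and the median was -0.12. Among the 25 abundant members 12 were called. The largest were Adamts2, the procollagen N-proteinase, at -1.26 (SE 0.074), and Pcolce, which enhances removal of the C-propeptide, at -1.05 (SE 0.065) in the authors' deposited table. The crosslinking oxidases Loxl1 at -0.93 (SE 0.064) and Lox at -0.86 (SE 0.059) came next in the authors' deposited table.

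Proteins that decorate or bind fibrils fell in 8 and rose in 1 of 12 genes tested in the authors' deposited table, and their median was -0.56. Of the 7 abundant members 5 were called. The small proteoglycans Ogn at -1.93, Prelp at -1.43 and Bgn at -1.14 and the collagen-binding Sparc at -0.84 had the largest changes in the authors' deposited table. Basement membrane partners did not move one way. Of 12 such genes 4 fell and 3 rose in the authors' deposited table, and their median was 0.11. Over the 7 abundant members, of which 5 were called, the median was -0.27. Nid1, the nidogen that links laminin to type IV collagen, rose by 1.37 (SE 0.070, adjusted p 5.56e-82, authors' deposited table). Lamc3, at 3.21 (SE 0.978), had a mean of 8.55 in the authors' deposited table. Besides Sparc, the laminin chains Lamb1 at -0.42 and Lamb2 at -0.20 and the proteoglycan Agrn at -0.27 fell in the authors' deposited table.

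Collagen receptors had 7 genes with an adjusted p in the authors' deposited table, of which 2 fell and 1 rose, with a median of -0.13. Of the 5 abundant members 2 were called, and their median was -0.03. Mrc2, an endocytic receptor for collagen, fell by 0.84 (SE 0.071), Itga11 at -3.20 (SE 0.918) had a mean of 9.88, and Cd44 rose by 0.20 (SE 0.068) in the authors' deposited table. Among 8 genes of collagen breakdown, with its inhibitors counted in, 4 fell and 2 rose in the authors' deposited table, and their median was -0.32. These counts thus mix proteases with genes that restrain them. Of the 7 abundant members 6 were called. The metalloproteinase inhibitors Timp3 at -0.81, Timp1 at -0.50 and Timp2 at -0.35 fell, as did the gelatinase Mmp2 at -0.30, in the authors' deposited table. The lysosomal proteases Ctsl at 0.25 and Ctsb at 0.20 rose in the authors' deposited table. The metalloproteinases Mmp14 at -0.14 and Mmp9 at -0.77 were not called there, and Mmp9 had a mean of 66.3.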

How the data were processed

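Libraries of non-stranded mRNA were made from 6 samples, 3 per group, per the labels' protocols. Genome build mm9 and DESeq2 are named in the submitters' processing notes, and the aligner and counter are not given in the sources used here. The authors deposited 1 table with 1 line per gene. Per the file headers it holds a mean normalized count over the libraries, a signal scaled to a library of average depth. The authors deposited a log2 fold change with its SE, a score (the Wald statistic, equal to their ratio) and a p-value with an adjusted p-value. A gene without an adjusted p, as for 2875 of 16472 genes, all with a mean of at most 8.41, got no call. Depth per library is unknown.

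Collagen genes were matched by symbol and assigned to classes by hand. Members, lists and alternatives were chosen with earlier results of these data known. Every collagen gene could be named. From each list at most the 4 called genes with the largest absolute log2 fold change were named, and 1 of these is not reported here. Ctsl, Ctsb, Mmp14, Mmp9, Lamb1, Lamb2, Agrn and the cell type markers were named after their values were seen. Computed values were implied group levels, differences between chains with root-sum-square SEs, and 95% intervals of 1.96 SE. Transcript length and GC content came from canonical transcripts of GENCODE M39 (GRCm39), known for all 30 members and for 86.3% of genes. Promoters are from RefSeq (GRCm38.p6), matched by symbol. Alternatives changed the threshold, adjustment, filter, centre or trend. The code for calls was tested on simulated data. The work was done in Python 3.11.15 with statsmodels 0.14.6, SciPy 1.17.1 and pandas 2.3.3.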

Additional observations from a re-analysis of the deposited data

How the results depend on the processing

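No paired analysis was possible because the deposited file lists 1 line per gene with no column for a library. For the same reason leaving out replicates and refitting with another normalization were not run. The count of 12 collagen genes called negative was 11 to 12 under all 9 alternatives. Col5a2 at -0.43 was lost to an added limit of 0.5 on the absolute log2 fold change. Over all genes, the share called negative ran from 2.38%, when changes up to 0.25 counted as null, to 13.5% with genes of a mean of at least 100. The largest adjusted p among the 12 was 1.58e-08 in the authors' deposited table, so stricter limits and small shifts had little room to change the count. The 12 genes kept their call under both centrings and the trend. The count of positive calls was 1 instead of 0, Col4a1 each time, with genes of a mean of at least 100 only (0.14), after subtraction of the trend on length, GC content and mean (0.18), and after centring on 12 reference genes (0.16), an alternative chosen after the data were seen. Centring on abundant genes changed each value by -0.013 and centring on reference genes by 0.015.

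Class medians depended on how members were weighted. With members of a mean of at least 100, the fibrillar median of -0.53 became -0.75 and the fibril-associated one of -0.11 became -0.47. Weighting by 1/SE squared gave -0.87 for fibrillar, -0.36 for basement membrane, -0.70 for type VI and -1.03 for fibril-associated genes, since abundant genes then count most. Ratios of means per kb moved with the length used. With coding length, Col5a1 over Col5a2 was 0.963 instead of 1.06, Col6a1 over Col6a2 was 1.46 instead of 2.11, Col6a1 over Col6a3 was 2.13 instead of 1.81 and Col6a2 over Col6a3 was 1.46 instead of 0.859. With the longest transcript the 3 type VI ratios were 1.58, 1.52 and 0.961. Low means limit the result for the 10 collagen genes with a mean under 100, of which 5 had no adjusted p.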
